A study of Bos taurus with 20 samples.

Results

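The data are the 10 arrays, of 20 in the series, that measured bovine morulae produced with X-sorted sperm: 5 pools cultured with Dickkopf-1 (DKK1) and 5 control pools. Members were taken by the sex and treatment in the sample titles. The morula is the ball of blastomeres that precedes the blastocyst. Female control embryos received vehicle, phosphate-buffered saline with bovine serum albumin, and female DKK1 embryos received 100 ng/ml recombinant human DKK1, both on Day 5 after insemination, and both were harvested on Day 6, after 24 h. All were *Bos taurus* embryos made and cultured in vitro from abattoir oocytes and pooled sperm of several bulls, and each array holds amplified RNA from 1 pool of 20 morulae, compacted and non-compacted, without zona pellucida. The other 10 arrays hold morulae from Y-sorted sperm under the same treatments, called male here, and sexed semen gives mostly but not only embryos of the wanted sex. Pools are the replicates, so P values set a difference against the spread between pools. Those from limma take that spread from all 20 arrays, male pools included.

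DKK1 is a secreted antagonist of canonical WNT signalling. WNT ligands bind Frizzled receptors with the co-receptor LRP5 or LRP6, which stops the degradation complex of Axin, APC and GSK3 from destroying beta-catenin, and beta-catenin then activates target genes with TCF and LEF factors. DKK1 binds LRP5 and LRP6, with Kremen as a further receptor, and blocks that step. At the morula stage the outer cells begin to form trophectoderm and the inner cells the inner cell mass, with Hippo signalling, CDX2 and GATA3 on the trophectoderm side and POU5F1, SOX2 and NANOG on the pluripotent side. The comparison asks what addition of DKK1 did to transcript levels in female embryos.

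Values are log2 intensities, so a difference of 1 is a doubling of signal, and a probe set was tested if its mean over the 20 arrays was at least 5.5. Of 17764 autosomal probe sets with 1 gene symbol, 7342 were tested, covering 7200 symbols. In the female pools XIST, the transcript of the inactive X chromosome, lay between 8.42 and 10.03 in all 10 pools, and the Y-linked *DDX3Y* lay between 2.65 and 5.43. Another Y-linked transcript, *EIF1AY*, was highest in control pool 4 at 6.56 and in DKK1 pool 4 at 5.82, and between 2.13 and 4.97 in the other pools. The male arrays other than control 2 had *EIF1AY* at 5.91 to 9.10, a range that holds female control pool 4. Male control 2 had XIST at 8.81 and *DDX3Y* at 4.82, both within the female range, against 6.30 to 8.22 and 6.29 to 8.36 in the other 9 male arrays, and *EIF1AY* at 5.63, below all of them. Whether it is a mixed or mislabelled pool was not tested. It enters the female P values through the spread that limma estimates over all 4 groups, and the male differences directly. Of 20 probe sets for cumulus and granulosa cell genes, 2 were tested (*PTGS2* and *NR5A2*), and the mean level of all 20 was 4.13 ± 0.10 in control and 4.15 ± 0.05 in DKK1 pools (SD, n = 5; exact two-sided permutation p = 0.817). The median autosomal level was 7.18 to 7.30 in control pools and 7.17 to 7.36 in DKK1 pools.

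Female morulae cultured with DKK1 differed from controls in no autosomal gene that passed the adjusted threshold. By unadjusted P the leading genes were *SH3BGRL2*, *GBF1* and *OXCT1* on the higher side and *LOC327709*, *C11H2orf68* and *RETREG2* on the lower side, with differences of 0.86, 0.86, 0.76, -1.56, -0.94 and -0.99. At an adjusted P below 0.05 (limma, Benjamini-Hochberg over all 9842 tested probe sets) the count was 0 of 7342, or 0%, and the smallest adjusted P was 0.829. The unadjusted P was below 0.05 for 311 probe sets, 4.24% of those tested, of which 187 (2.55%) were higher and 124 (1.69%) lower with DKK1. Without male control 2 these were 219 higher and 168 lower. With quantile normalization of the arrays they were 173 higher and 169 lower, so the excess of higher values is not the same under both scalings. Of the 187 higher and 124 lower of the main fit, a 1.5-fold higher or under 0.66-fold level was shown by 80 that were higher (1.09% of those tested) and 52 that were lower (0.708%). Differences were small for most genes: the median absolute difference was 0.15 against a median standard error of 0.22. Genes named below as higher or lower are therefore a ranking by unadjusted P, and none of them is a call. Of the 311, 82 kept an unadjusted P below 0.05 when any 1 female pool was left out.

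**Figure D1:**
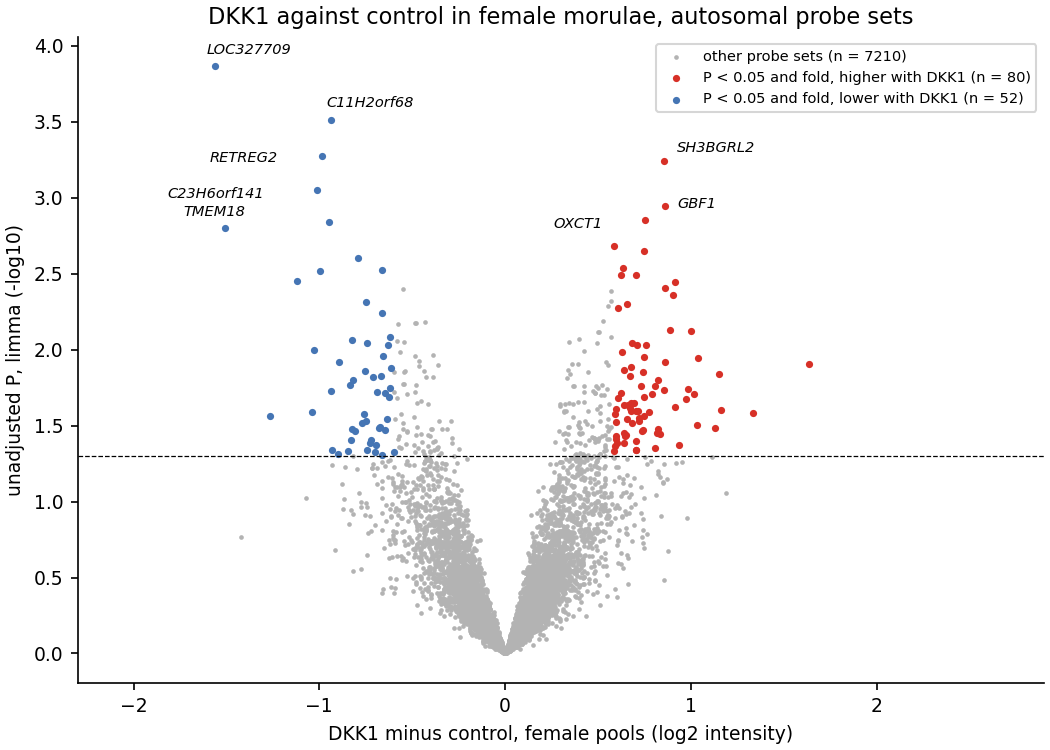
Difference between DKK1 and control in female pools (x axis, log2 intensity) against the unadjusted P of limma (y axis, -log10) for 7342 autosomal probe sets; red and blue points are the 80 higher and 52 lower probe sets with P below 0.05 and the fold change, and the dashed line is P of 0.05. The smallest unadjusted P is that of *LOC327709*, 0.000136, on the lower side, and no point passed an adjusted P of 0.05.

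The leading gene among those that were higher was *SH3BGRL2*. Its levels were 8.87, 7.86, 8.47, 9.26 and 8.26 in control pools 1 to 5 and 9.31, 9.49, 9.41, 9.52 and 9.27 in DKK1 pools 1 to 5. All DKK1 pools lay above all control pools, although by only 0.02, and the DKK1 pools were the tighter group (SD 0.11 against 0.54). The difference was 0.86 (SE 0.21), 1.81-fold, with limma's unadjusted P = 0.000573 and adjusted P = 0.998. *OXCT1*, the enzyme that lets tissues burn ketone bodies, had control levels of 6.61, 6.25, 6.02, 6.47 and 6.17 and DKK1 levels of 7.14, 7.08, 7.65, 6.80 and 6.64. The groups of *OXCT1* again did not overlap, and its difference was 0.76 (SE 0.20, unadjusted P = 0.00141).

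The widest separation of pools on the higher side belonged to *DPYSL3*, a cytoskeletal regulator known from growing neurons. Control pools measured 5.54, 5.74, 5.76, 5.75 and 5.28, and DKK1 pools 7.18, 6.23, 6.5, 6.23 and 6.23. The lowest DKK1 pool was 0.47 above the highest control pool, and DKK1 pool 1 stood above the other DKK1 pools. *METTL13*, a methyltransferase of the translation elongation factor eEF1A, ran from 5.58 to 6.13 in control pools and from 6.28 to 6.99 in DKK1 pools, also without overlap, with pool 4 the highest of the DKK1 pools.

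The other leading higher genes had groups that touched or overlapped. *GBF1*, which activates ARF GTPases at the Golgi, was 6.27 ± 0.26 in control and 7.13 ± 0.49 in DKK1 pools, with DKK1 pool 4 at 6.37 inside the control range. *SLC30A5*, a zinc transporter of the secretory pathway, was 7.58 ± 0.29 and 8.17 ± 0.13, and *FAM83D*, a protein of the mitotic spindle, was 7.11 ± 0.36 and 7.82 ± 0.33. Differences for the reticulon *RTN2*, for *PLEKHA3*, which binds a phosphoinositide of the Golgi, and for the Golgi membrane protein *GOLM2* were 0.75, 0.64 and 0.92. The control pools of *GOLM2* were widely spread, from 4.47 to 6.33.

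*LOC327709*, which is named here only by its locus symbol, had the smallest unadjusted P of all, 0.000136, and an adjusted P of 0.829. Its control levels were 6.99, 7.25, 6.99, 6.27 and 6.10, and its DKK1 levels 4.56, 6.00, 6.01, 4.71 and 4.51. No pools overlapped, but 2 DKK1 pools were just below the lowest control pool and 3 were far below it, at levels under the test threshold of 5.5. The difference was -1.56 (SE 0.33, 95% interval -2.25 to -0.87). *TMEM18*, a transmembrane protein of the nuclear envelope, had control levels of 6.23, 6.30, 6.15, 6.04 and 8.12 and DKK1 levels of 5.38, 4.31, 5.04, 5.72 and 4.85. Its difference of -1.51 included control pool 5, far above the other control pools, and the gap of 0.32 between the groups did not depend on that pool.

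*RETREG2*, a receptor-like regulator of endoplasmic reticulum turnover by autophagy, measured 6.49, 5.34, 5.83, 5.94 and 6.68 in control pools and 5.05, 5.25, 5.13, 5.05 and 4.87 in DKK1 pools. The DKK1 pools lay close together while the control pools were spread (SD 0.14 against 0.54), and the groups did not overlap (difference -0.99, SE 0.24, unadjusted P = 0.000532). *PDK2*, a kinase that inhibits pyruvate dehydrogenase and so limits entry of pyruvate into the citric acid cycle, was 6.34, 6.15, 7.15, 6.08 and 5.91 in control and 5.57, 5.33, 5.27, 5.79 and 5.71 in DKK1 pools. It too was lower in every DKK1 pool than in any control pool, by a difference of -0.79 (SE 0.23).

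Of the remaining leading lower genes, the open reading frames *C11H2orf68* (7.09 ± 0.34 against 6.15 ± 0.42) and *C23H6orf141* (7.11 ± 0.53 against 6.10 ± 0.28) also did not overlap. *SYNGR2*, a vesicle membrane protein, *BLOC1S3*, a subunit of a complex that builds lysosome-related organelles, and the F-box protein *FBXO8* differed by -0.95, -0.66 and -1.0 with overlapping pools. *GNAI1*, an inhibitory G protein alpha subunit, differed by -1.12, with control pool 2 at 7.37 and the other control pools between 5.24 and 6.06. All 20 leading genes kept an unadjusted limma P below 0.05 when any 1 female pool was left out, and the largest of these P values was 0.0162, for *DPYSL3*. The 20 were picked for the smallest P in these same arrays, which favours that outcome, so it is no support for them.

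**Figure D2:**
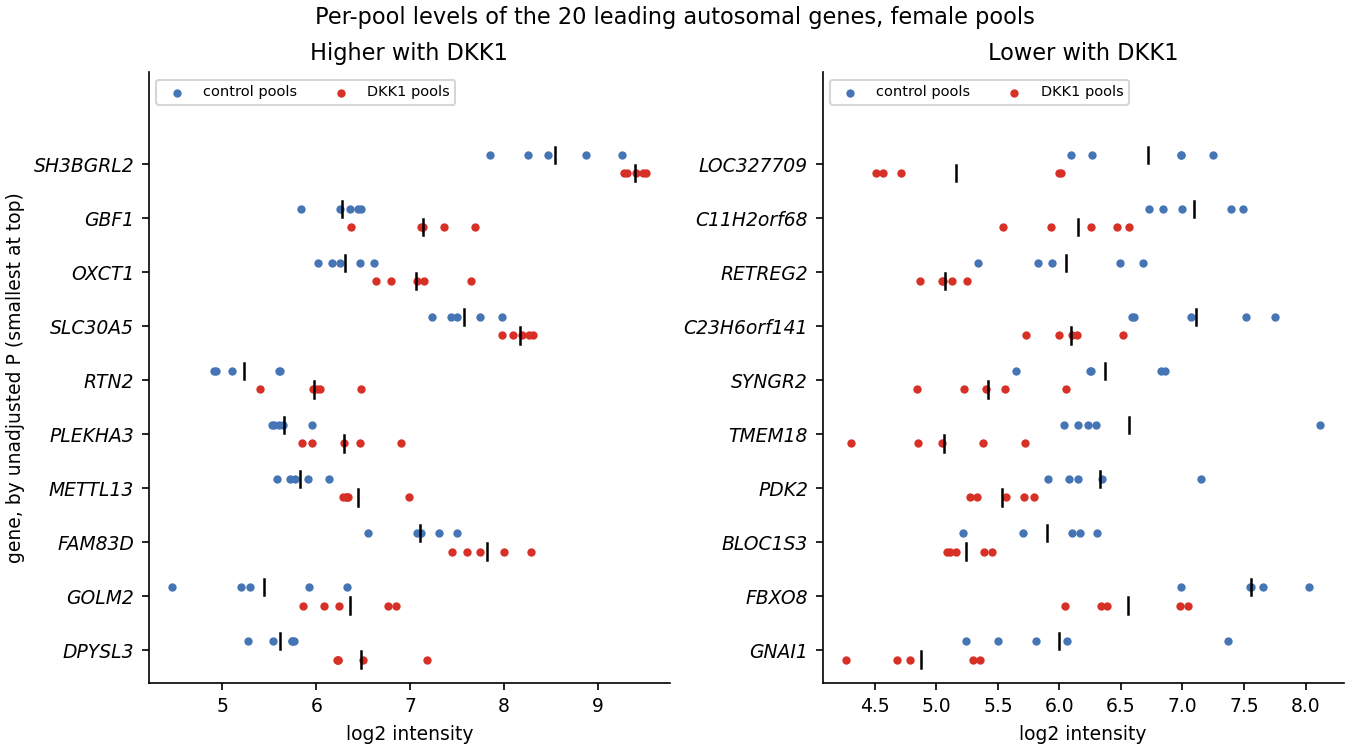
Log2 intensity (x axis) in each of the 5 control pools (blue) and 5 DKK1 pools (red) for the 10 higher and 10 lower autosomal genes with the smallest unadjusted P (y axis, smallest at the top); black bars are group means. The pools separate fully for *SH3BGRL2*, *OXCT1*, *METTL13* and *DPYSL3* on the left and for *LOC327709*, *C11H2orf68*, *RETREG2*, *C23H6orf141*, *TMEM18* and *PDK2* on the right.

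Full separation of the 5 DKK1 from the 5 control pools was seen for 25 probe sets that were higher, 0.341% of those tested, and 28 that were lower (0.381%). Under random labels the exact permutation probability of full separation, in either direction, is 0.00794 for each probe set. These shares together are no larger than that, so pools without overlap are a description and not a call. Among them were genes with small but even differences. *DNAJB1*, a heat-shock co-chaperone, was 7.30, 6.94, 7.30, 6.90 and 7.25 in control and 7.57, 7.67, 7.54, 7.87 and 7.65 in DKK1 pools, a difference of 0.52 (SE 0.20). *UACA*, a regulator of apoptosis, was 6.32 ± 0.14 and 6.88 ± 0.20. *MRPL32*, a protein of the mitochondrial ribosome's large subunit, was 9.59 ± 0.07 and 9.10 ± 0.12, a lowest control pool of 9.51 and a highest DKK1 pool of 9.30. Its unadjusted P was 0.0427, with a standard error of 0.22 that limma estimated from all 4 groups, and P stayed below 0.05 in 1 of 10 fits that left out a female pool. *LCMT1*, which methylates protein phosphatase 2A, *HARS2*, the mitochondrial histidyl-tRNA synthetase, *CINP*, a CDK2-interacting protein, and the transcription factor *SP2* also separated, with differences of 0.74, 0.91, -0.65 and -0.89. The difference of *SP2* was -0.54 without DKK1 pool 4. P stayed below 0.05 in 5 of 10 fits that left out a female pool for *LCMT1* and in 7 of 10 for *HARS2*. The standard errors also hold the male spread. For *LCMT1* the SD was 0.15 and 0.31 in female control and DKK1 pools, and 0.85 and 0.59 in male ones. For *HARS2* it was 0.43 and 0.19 in female and 0.63 and 0.99 in male pools. For *MRPL32* the male SD was 0.70 and 0.14. The male difference of *MRPL32* was 0.37, and 0.07 without male control 2.

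WNT pathway genes were grouped by the route of the signal. Of 19 autosomal probe sets for WNT ligands and their secretion, only *WLS*, the carrier of WNT proteins to the cell surface, reached the test threshold. *WLS* was 6.49, 6.41, 6.21, 7.02 and 5.31 in control pools and 6.66, 6.90, 6.46, 7.76 and 6.97 in DKK1 pools. The groups overlapped, with control pool 4 above 4 of the DKK1 pools, and the difference was 0.66 (SE 0.32, unadjusted P = 0.0525). Receptors and DKK proteins had 21 probe sets on the array, of which 7 were tested and 0 had an unadjusted limma P below 0.05. *LRP6*, the co-receptor that DKK1 binds, was 6.43 in control and 6.40 in DKK1 pools, and *KREMEN1*, the other DKK1 receptor tested, was 6.56 and 6.81. The Frizzled receptors differed in both directions, from -0.38 for *FZD3* to 0.75 for *FZD10*, whose control pools had an SD of 1.42. Transcript of the embryo's own *DKK1* was near the threshold, at 5.58 ± 0.52 in control and 5.34 ± 0.65 in DKK1 pools, with a difference of -0.25 (unadjusted P = 0.404) in the fit without a threshold.

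Intracellular WNT components had 24 tested probe sets with a median difference of -0.04, against 0.01 for all autosomal probe sets. Unadjusted P was below 0.05 for 2 of them, both higher, and for 0 lower. *BCL9*, which links beta-catenin to the transcription machinery, was 4.55, 5.39, 5.78, 4.8 and 4.45 in control and 6.72, 5.89, 6.77, 5.69 and 4.99 in DKK1 pools, so that 2 DKK1 pools lay inside the control range. Its difference was 1.02 (SE 0.40, unadjusted P = 0.0196), and P stayed below 0.05 in 7 of 10 fits that left out a pool. *GSK3B*, the kinase that marks beta-catenin for degradation, has 3 probe sets, which differed by 0.48, 0.31 and 0.08, and only the first had an unadjusted P below 0.05 (0.0383). Beta-catenin itself (*CTNNB1*) was 8.51 and 8.56, *APC* 6.36 and 6.29, and *AXIN1* 5.67 and 5.53.

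Target genes of canonical WNT signalling had 6 tested probe sets of 21 on the array, 0 higher and 1 lower at an unadjusted P below 0.05. *LGR5*, a receptor for R-spondins that is itself induced by WNT signalling, was 6.82, 6.64, 4.77, 5.15 and 6.75 in control pools and 5.75, 5.11, 4.76, 4.93 and 5.36 in DKK1 pools. Its control pools fell into a high trio and a low pair, the DKK1 pools overlapped the low pair, and the difference was -0.84 (unadjusted P = 0.0468). That P stayed below 0.05 in 3 of 10 fits that left out a pool. *AXIN2*, the feedback inhibitor most widely used as a readout of the pathway, was 5.86 in control and 5.92 in DKK1 pools, a difference of 0.06. *MSX1*, *MSX2*, *TCF7* and *ZNRF3* differed by -0.36, 0.11, -0.14 and 0.02. *LEF1*, *SP5*, *NKD1*, *MYC*, *CCND1* and *TBXT* were below the threshold, and in the fit without one their unadjusted P ranged from 0.161 for *SP5* to 0.804 for *MYC*. The non-canonical branch, planar polarity and JNK, gave 13 tested probe sets with 0 at an unadjusted P below 0.05 and differences from -0.04 to 0.33.

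Genes of the first cell lineages showed little separation by treatment. The 12 trophectoderm probe sets had a median difference of 0.07 and none had an unadjusted limma P below 0.05. *CDX2*, the factor needed for trophectoderm, was 8.29, 7.97, 7.76, 6.85 and 6.87 in control and 7.24, 8.90, 7.38, 8.21 and 7.16 in DKK1 pools. The spread within each group was wider than the difference of 0.23, whose 95% interval was -0.71 to 1.17. *GATA3* was 7.91 ± 0.67 and 8.17 ± 0.32, *TEAD4*, the Hippo effector that drives *CDX2* in the mouse, was 8.57 ± 0.32 and 8.42 ± 0.23, and the keratins *KRT8* and *KRT18* differed by 0.03 and 0.10. Hippo pathway genes gave 18 tested probe sets, 0 at an unadjusted P below 0.05, with the coactivators *YAP1* and *WWTR1* differing by -0.02 and 0.14 and the kinase *LATS1* by 0.09.

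Among 16 pluripotency probe sets 1 was higher at an unadjusted P below 0.05 and 0 lower. That was *DPPA2*, a chromatin factor of pluripotent cells, at 7.43, 7.99, 7.61, 7.67 and 7.43 in control and 8.0, 7.90, 8.39, 7.76 and 8.58 in DKK1 pools. DKK1 pools 2 and 4 lay inside the control range, the other 3 at its top or above it, and the difference was 0.50 (SE 0.17, unadjusted P = 0.00772). *POU5F1* was steady from pool to pool, at 10.43 ± 0.17 and 10.46 ± 0.14, and its difference of 0.03 had a 95% interval of -0.21 to 0.27. *SOX2* and *NANOG* differed by 0.06 and 0.31, the latter with an interval of -0.48 to 1.09. Of 6 hypoblast probe sets, *LAMB1*, a laminin chain of basement membrane, was higher at 8.48 ± 0.16 against 8.14 ± 0.17 (unadjusted P = 0.0136), and *GATA6* differed by 0.13.

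Among genes of growth factor pathways, *SMAD3*, which carries activin, nodal and TGF-beta signals to the nucleus, was 6.69, 6.43, 6.73, 6.79 and 7.51 in female control pools and 7.47, 7.80, 7.48, 8.63 and 7.20 in female DKK1 pools. Control pool 5 reached the DKK1 range and the other 4 control pools lay below all DKK1 pools. The difference was 0.89 (SE 0.30), 1.85-fold, with an unadjusted limma P of 0.00738 and an adjusted P of 0.998. *BMP4*, a ligand of the same superfamily, was 5.44 ± 0.44 and 5.92 ± 0.18, and these were the 2 of 14 probe sets on that list with an unadjusted P below 0.05. In the list of 19 FGF and MAPK probe sets, *SOS1*, an exchange factor that activates RAS, was 0.51 higher without overlap of the pools and *NRAS* was 0.34 higher. *FGFR2* and *FGF4* were below the threshold. In the fit without one, *FGFR2* was 4.70 ± 0.35 and 5.15 ± 0.19 (unadjusted P = 0.0276) and *FGF4* was 4.86 ± 1.23 and 5.22 ± 0.88.

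**Figure D3:**
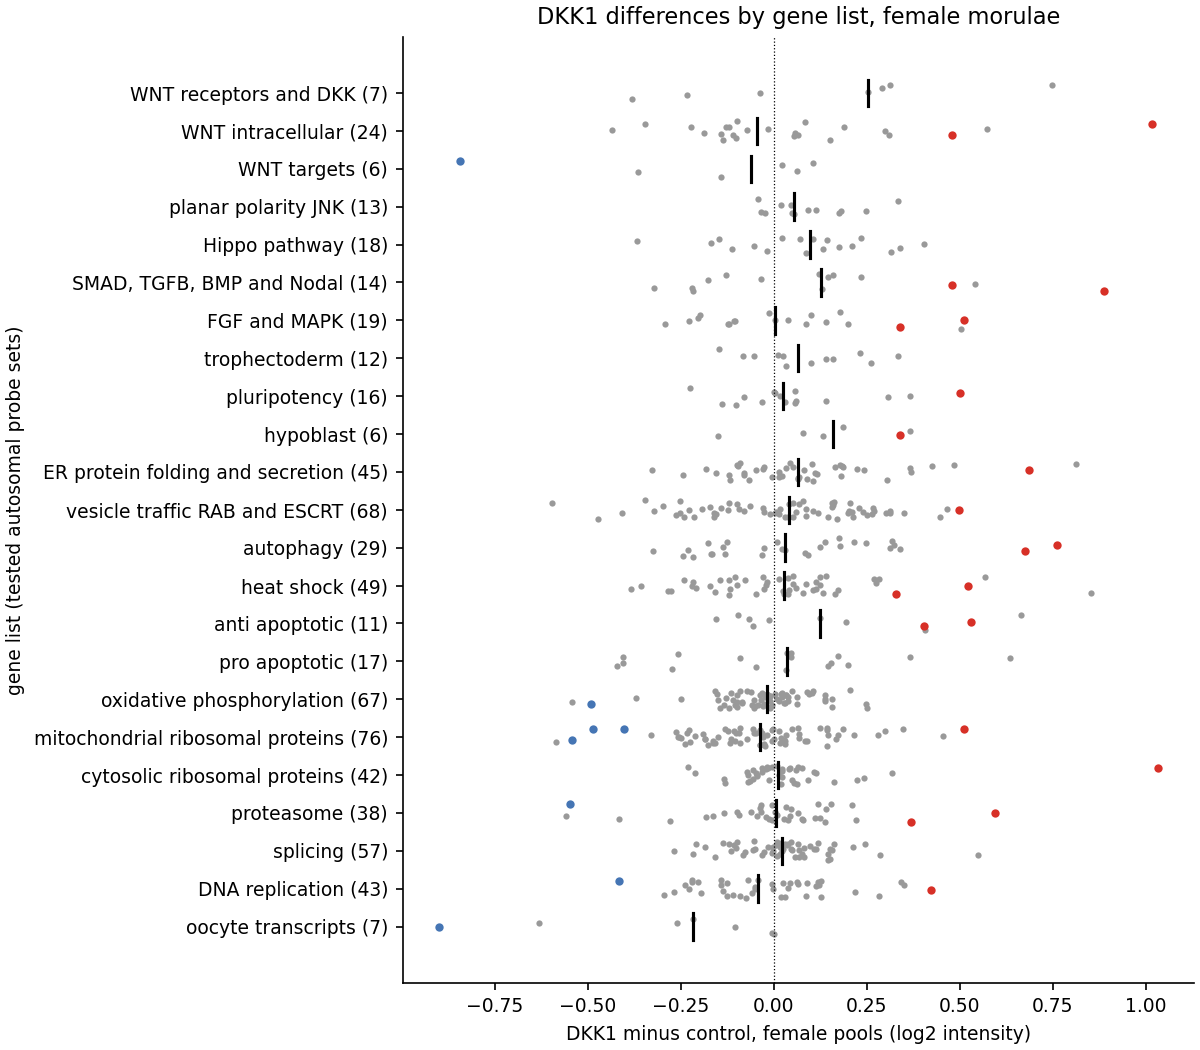
Difference between DKK1 and control in female pools (x axis, log2 intensity) for each tested autosomal probe set of 23 gene lists (y axis, number tested in brackets); grey points had an unadjusted P of at least 0.05, red points were higher and blue points lower with P below 0.05, and black bars are list medians. Most medians lie close to 0, and each list has at most 4 coloured points.

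Over 53 gene lists with 1331 tested probe sets, counting a gene again for each list that holds it, 48 had an unadjusted P below 0.05, which is 3.61% against 4.24% for all autosomal probe sets. In 20 lists there was none. Protein quality control gave scattered members. Of 49 heat-shock probe sets 2 were higher, *DNAJB1* and *DNAJC13* (0.33), a co-chaperone of endosomes. Of 29 autophagy probe sets 2 were higher: *ATG5*, needed to build the autophagosome, at 6.02 ± 0.44 and 6.78 ± 0.46, and *UVRAG*, a partner of the lipid kinase complex, at 7.35 ± 0.31 and 8.02 ± 0.43. The proteasome list had 2 higher and 1 lower of 38. The 3 were activator subunits, *PSME1* at -0.55 without overlap of the pools, *PSME2* at 0.59 and *PSME4* at 0.37. The difference of *PSME2* was 0.37 without control pool 2, and its P stayed below 0.05 in 4 of 10 fits that left out a female pool.

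Secretory and vesicle genes had few members past the unadjusted threshold, 1 of 45 for protein folding and secretion (*SEC24D*, a coat protein of transport vesicles, 0.68) and 1 of 68 for vesicle traffic (*VPS54*, 0.50). Cytoskeletal lists gave *KLC1*, a kinesin light chain, at 6.81 ± 0.35 and 7.38 ± 0.25, and *DIAPH3*, an actin nucleator, at 7.72 ± 0.11 and 8.03 ± 0.12, the latter without overlap. Of 11 anti-apoptotic probe sets *BAG3* (0.53) and *API5* (0.40, and 0.62 without control pool 4) were higher. Their P stayed below 0.05 in 7 and 3 of 10 fits that left out a pool. Of 17 pro-apoptotic probe sets 0 had an unadjusted P below 0.05 in limma, and their differences ran from -0.42 to 0.63. The share over all autosomal probe sets was 4.24%, and whether these 2 short lists differ was not tested.

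Mitochondrial lists had medians near 0. Of 76 probe sets for mitochondrial ribosomal proteins 1 was higher (*MRPL46*, 0.51) and 3 were lower (*MRPS7*, -0.54, *MRPL32*, -0.49, and *MRPL30*, -0.40), and the list median was -0.04. Oxidative phosphorylation had 67 probe sets with a median of -0.02 and 1 below 0.05, *NDUFA3*, a subunit of complex I. *NDUFA3* was 11.31, 11.40, 11.04, 11.01 and 11.18 in control pools and 11.10, 10.78, 10.40, 10.30 and 10.91 in DKK1 pools, of which only pool 1 reached the control range, and differed by -0.49 (unadjusted P = 0.028). The 19 citric acid cycle probe sets had none below 0.05. Cytosolic ribosomal proteins had a median of 0.01 over 42 probe sets. Only 1 was below 0.05, *RPS23*, at 5.67 ± 0.61 and 6.70 ± 0.84, a difference of 1.03 (unadjusted P = 0.0312). Control pools 3 and 5, at 5.27 and 4.85, and DKK1 pool 2, at 5.41, were under the test threshold of 5.5. P of *RPS23* stayed below 0.05 in 6 of 10 fits that left out a female pool.

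Nuclear functions gave members in both directions: *NUP93* (0.39), *NUP188* (-0.40) and *KPNA7* (-0.90) among 52 nuclear pore and transport probe sets, *POLE* (0.42) and *MCM5* (-0.42) among 43 for DNA replication, and *KDM3A* (0.43), a histone demethylase, and *KAT2A* (-0.60), a histone acetyltransferase, among 64 histone modifiers. *KPNA7*, an importin of the oocyte, was also the 1 of 7 oocyte transcripts with an unadjusted P below 0.05, at 6.30 ± 0.92 and 5.40 ± 0.71. Its difference was -0.57 without control pool 3, and P stayed below 0.05 in 4 of 10 fits that left out a pool. Of those 7, 1 had a difference above 0, and the median of -0.22 was the lowest of the 53 lists, with an SD of 0.31 between pool medians. Groups overlapped in the mean level of that list, which over its 25 probe sets was 4.97 to 5.87 in control and 4.82 to 5.59 in DKK1 pools (exact two-sided permutation p = 0.484). That mean holds mainly probe sets under the test threshold. Whether the share of remaining maternal RNA has a part in *KPNA7* or in the list median was not tested. In pooled embryos, fewer cells of a type and less RNA per cell cannot be told apart. The 57 splicing probe sets, 34 for DNA repair, 11 for DNA methylation and 7 for interferon response had none below 0.05. Reference genes stayed within -0.24 to 0.20, *ACTB* at 12.37 in both groups.

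Pools within a treatment were about as far apart as pools across treatments. Over 7342 probe sets the Pearson correlation was 0.906 to 0.935 between control pools (median 0.914, 10 pairs), 0.905 to 0.944 between DKK1 pools (median 0.923, 10 pairs) and 0.906 to 0.941 between a control and a DKK1 pool (median 0.922, 25 pairs). These correlations are across genes, share the level of each gene and are given as a description. Correlation with the mean of the other pools of the same treatment was 0.947 ± 0.007 for control and 0.951 ± 0.009 for DKK1 pools (SD, n = 5; difference 0.00385, exact two-sided permutation p = 0.452). DKK1 pools 1 and 3 agreed best with their group, at 0.960 each.

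**Figure D4:**
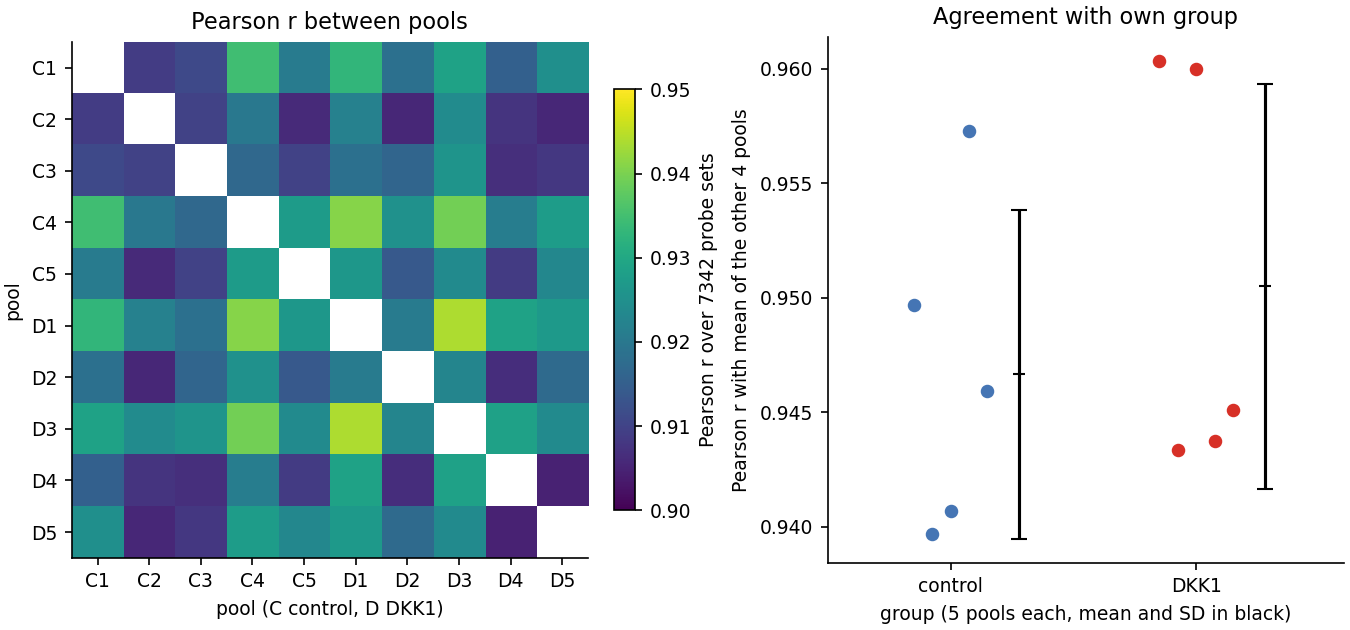
Left, Pearson correlation of log2 intensity between each pair of female pools over 7342 autosomal probe sets (C, control pools 1 to 5; D, DKK1 pools 1 to 5; the diagonal is blank); right, correlation of each pool with the mean of the other 4 pools of its treatment, with group mean and SD in black. The highest correlation, 0.944, joins DKK1 pools 1 and 3, and control pool 4 correlates more with each of them than with any other control pool.

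The spread per gene was also alike, with a median SD of 0.33 in both groups and a larger SD in DKK1 pools for 48.4% of probe sets. Spread depended on level: the median control SD was 0.41 in the lowest 1836 probe sets by mean level and 0.22 in the highest 1836. Of the 132 probe sets past unadjusted P and fold, 93 (70.5%) had means below 7, against 44.5% of all tested. Single pools held extremes unevenly. DKK1 pool 4 had the highest of the 10 values for 1048 probe sets, and control pool 3 the lowest for 1153. An SD above 1 was found for 117 probe sets in control and 90 in DKK1 pools. The histone gene *H2AC21* was 9.19, 4.29, 10.04, 8.03 and 9.16 in control pools and between 7.17 and 9.11 in DKK1 pools. *IFN-TAU*, the trophectoderm's pregnancy recognition signal in ruminants, was 5.74, 5.61, 4.26, 4.70 and 4.38 in control and 5.41, 4.65, 7.90, 8.45 and 4.23 in DKK1 pools. Only DKK1 pools 3 and 4 were high, the difference of 1.19 had an unadjusted P of 0.0873. *CDX2* was 7.38 and 8.21 in those same pools. One probe set of *TUBB2B*, a beta-tubulin, was 7.32, 8.12, 6.20, 8.90 and 9.24 in control and 8.48, 9.20, 7.17, 4.42 and 3.42 in DKK1 pools, while 2 others differed by 0.04 and 0.10.

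The largest fold changes among the 132 were chosen after their values were seen. *SLPI*, a secreted protease inhibitor, was 7.55, 4.8, 8.38, 7.80 and 8.60 in control and 8.73, 8.82, 9.46, 8.66 and 9.64 in DKK1 pools, a difference of 1.63 in which control pool 2 was far below the rest, and of 0.98 without that pool. *GNG12*, a G protein gamma subunit, differed by 1.33 (unadjusted P = 0.0261) and *GSTM2*, a glutathione transferase, by -1.26 (unadjusted P = 0.0272), and each had overlapping pools. By chromosome, the share with an unadjusted P below 0.05 ran from 2.35% on chromosome 16 to 6.43% on chromosome 26. Among 235 X-linked probe sets 5 were higher and 3 lower at that threshold. The X-linked minus autosomal level was 0.53 ± 0.07 in control and 0.60 ± 0.04 in DKK1 pools (exact two-sided permutation p = 0.0794, where 0.00794 is the smallest these 2 groups of 5 allow).

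Male pools were a separate set of arrays under the same treatment. In males 314 autosomal probe sets had an unadjusted P below 0.05 (4.28%), 231 higher and 83 lower with DKK1, and 0 passed the adjusted threshold in limma. Without male control 2 these were 127 higher and 121 lower. The 132 probe sets past P and fold in females had the same sign in males for 65, 49.2%, against 48.0% of all tested probe sets, and for 74 (56.1%), against 49.3% of all tested, without male control 2. Median male differences were 0.06 for the 80 that were higher and 0.07 for the 52 that were lower in females, where the female medians were 0.72 and -0.75. Without male control 2 the male medians were 0.03 and -0.03. The test of the difference between sexes had an unadjusted P below 0.05 for 344 probe sets (4.69%) and an adjusted P below 0.05 for 0, with 0.969 the smallest. Without male control 2 the count at an unadjusted P below 0.05 was 316.

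**Figure D5:**
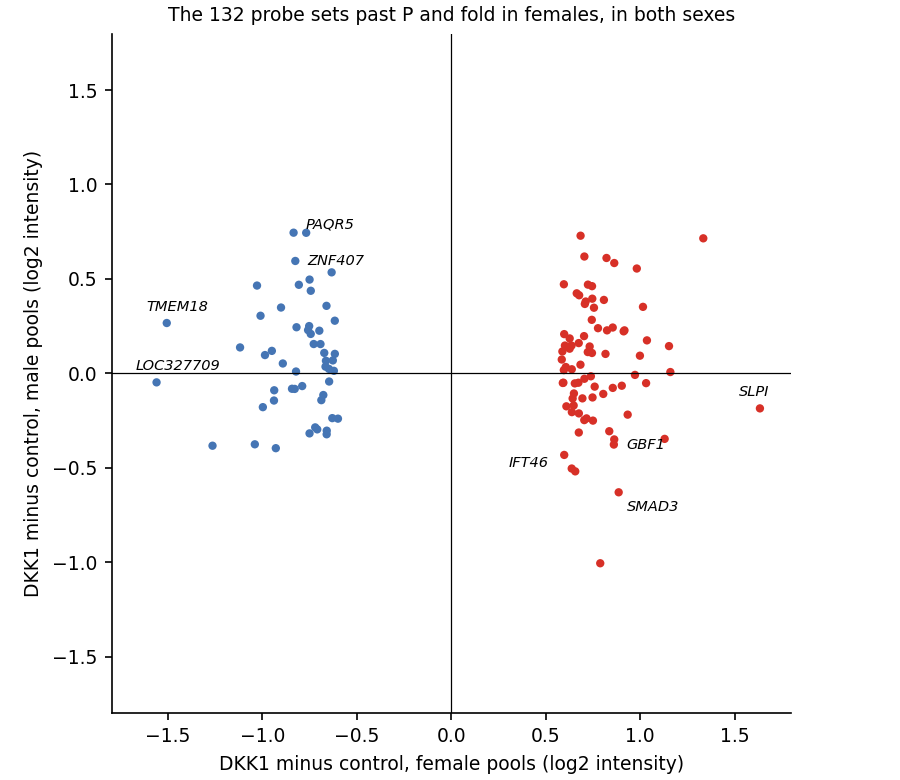
Difference between DKK1 and control in female pools (x axis) and male pools (y axis), both in log2 intensity, for the 132 autosomal probe sets with unadjusted P below 0.05 and the fold change in females (red, higher; blue, lower in females). Points lie on both sides of the horizontal line at 0, with 65 of the same sign in males (74 without male control 2), and *SMAD3* at 0.89 in females and -0.63 in males (-0.37 without male control 2).

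Of 7342 tested probe sets, 19 had an unadjusted P below 0.05 in both sexes, 6 in the same direction and 13 in opposite directions. The share was 4.24% in females alone and 4.28% in males alone. Whether 19 is more than these shares give together by chance was not tested. The 6 were *PLPP5*, *KLC1*, *GSC*, *FASTKD2*, *BMP4* and *RHOG*, all higher with DKK1 in both. *KLC1* differed by 0.57 in females and 0.71 in males (0.79 without male control 2), and *BMP4* by 0.48 and 0.54 (0.42 without male control 2, unadjusted P = 0.0644). *GSC*, a homeobox factor of the organizer, differed by 0.32 and 0.47 (0.46). The 13 were picked for opposite signs, which favours a small P for the difference between sexes. Of them, *SMAD3* differed by 0.89 and -0.63 (unadjusted limma P of the difference between sexes 0.00178), *IFT46*, a ciliary transport protein, by 0.66 and -0.52, and *NDUFA3* by -0.49 and 0.47. Without male control 2 the counts were 7 in the same direction and 4 in opposite directions, so the excess of opposite directions was not kept. Of the original members, 5 of the 6 then kept a male P below 0.05, all but *BMP4*, and 2 of the 13, *CCDC47* and *CSPG5*. The male differences of *SMAD3*, *IFT46* and *NDUFA3* were then -0.37, -0.43 and 0.27, each with a P above 0.05. *WLS* differed by 0.66 in females and -0.89 in males (-0.92 without male control 2), and *PRDM4*, a zinc-finger factor, by 0.10 and -0.99, with or without that array. *FKBP11* and *SEC22B*, both of the secretory pathway, differed by 0.48 and 0.81 in females, neither with an unadjusted P below 0.05, and by 1.24 (unadjusted P = 0.0108) and 0.89 (unadjusted P = 0.0648) in males. Without male control 2 these male differences were 0.78 and 0.48, with an unadjusted P of 0.0406 and 0.249. *RPP38*, a subunit of ribonuclease P, was below the threshold, at 6.14 ± 0.86 in control and 5.02 ± 0.50 in DKK1 female pools (unadjusted P = 0.00561 without a threshold). The study also measured these genes by quantitative PCR in other pools. There it found no significant DKK1 by sex interaction for *SMAD3*, *WLS*, *PRDM4* or *RPP38*. It reported *FKBP11* as lower with DKK1 and no effect on *SEC22B* or *TUBB2B*.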

How the data were processed

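The authors amplified RNA from each pool, hybridised it to an Affymetrix Bovine Gene 1.0 ST array and made the deposited log2 values with robust multi-array average in Affymetrix Expression Console. Versions are not given in the sources used here. No further normalization was applied. Probe sets were paired with genes by the platform annotation (18550 probe sets with 1 symbol, 595 with several and 7628 with none, of 26773). The names printed here and the chromosomes came from a RefSeq gene table where the gene was found in it. Probe sets with a mean of at least 5.5 over 20 arrays were fitted with limma 3.58.1 (R 4.3.3), 1 mean per group over the 4 groups with the moderated test, adjusted by Benjamini-Hochberg over 9842 probe sets. Errors are SD over 5 pools, or SE from limma. Array measures used exact two-sided permutation tests (SciPy 1.17.1).

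Genes named are the 10 higher and 10 lower with the smallest unadjusted P past the fold change, the 5 widest separations of pools in each direction, the 5 largest SD per group, up to 4 members of each of 53 lists, further members given by value, and genes the study names. The members and lists were chosen with earlier results of these data known. Probe sets with several symbols are not described. The number of arrays limits the precision. Alternatives were other thresholds, scalings, variance priors, array weights, blocks, female arrays alone and leaving out each pool. The fit was tested on simulated data.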

Additional observations from a re-analysis of the deposited data

Results flagged for a closer look

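Of 94 groups of 5 pools tested among the named genes, 7 held a pool that stood apart from the rest by Dixon's criterion, and chance gives about 1 in 20. Among control pools, *PLEKHA3* was 5.95 in pool 1 with the next at 5.64, *TMEM18* was 8.12 in pool 5 with the next at 6.30, and *KLF5*, a trophectoderm and pluripotency factor, was 8.33 in pool 3 with the next at 8.59. Among DKK1 pools, *METTL13* was 6.99 in pool 4 with the next at 6.34, *DPYSL3* was 7.18 in pool 1 with the next at 6.5, *SP2* was 6.72 in pool 4 with the next at 8.34, and a *TUBB2B* probe set was 6.57 in pool 5 with the next at 6.06.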

How the results depend on the processing

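No autosomal probe set passed the adjusted P in limma, or in the unmoderated model, under any alternative, for DKK1 in females or for the difference between sexes. Counts at an unadjusted P below 0.05 moved mainly with the threshold on level. With a mean of at least 7 they were 115 higher and 59 lower, 27 and 15 with the fold change, and without a threshold 339 and 376, 139 and 103 with the fold change. Leaving out 1 female pool gave 142 to 235 higher and 120 to 157 lower, and 75 to 115 and 52 to 78 with the fold change. Of 311 probe sets, 82 kept P below 0.05 in all 10 such fits, as did 49 of the 132 past the fold change. The share of higher among those with P below 0.05 was 60.1%, against 50.6% with quantile normalization, 55.2% with autosomal median centring and 47.4% without a threshold. The difference in agreement between DKK1 and control pools was -0.00296 to 0.0112 when 1 pool was left out. A pool of the shortened group is then correlated with a mean of 3 other pools and not 4, which lowers its value by construction, so this range does not measure dependence on a single pool.

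Deviations of same-numbered control and DKK1 pools correlated at -0.0385 to 0.0959, and 1 of 5 control pools correlated best with its own number. Control pool 4 and DKK1 pool 4 held the highest *EIF1AY* levels of the female pools (6.56 and 5.82). They also held the lowest XIST levels (8.42 and 8.43). Whether same-numbered pools shared a fertilization procedure was not tested. With the replicate block the counts were 193 higher and 127 lower, 85 and 53 with the fold change, and 0 by adjusted P. Over 44 of the 117 named probe sets and all alternatives, 999 of 1027 values kept direction and side of an unadjusted P of 0.05. Of the rest 18 lost it, 10 gained it and 0 were scored as reversed. That score does not mean that every named gene kept its sign. The difference of *CDX2* went from 0.23 to -0.05 without DKK1 pool 2. That of *H2AC21* went from 0.22 to -0.74 without control pool 2. Most members named from the lists were outside the score. Of these, *LGR5* and *MRPL46* kept an unadjusted P below 0.05 in 3 of 10 fits that left out a female pool. *GSK3B* and *BMP4* kept it in 4 of 10, and others, such as *ATG5* and *KLC1*, in all 10. List medians moved by less than the spread between pools in 209 cases and by more in 3. These 3 were without a threshold, with medians of -0.02 for WNT receptors and DKK proteins, -0.02 for WNT ligands and 0.00 for anti-apoptotic genes, where many added probe sets lie at low levels. The cause of these changes was not tested. Signal near background limits the low-level genes most.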
